A study of Populus x canadensis with 3 samples.

Results

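Roots of "Neva", a hybrid poplar (Populus × euramericana), had been used for small RNA sequencing, and 45 distinct sequences of the miR6421 to miR6477 families were examined across 3 pHBA doses. These are all sequences whose name starts with ptc-, the prefix for Populus trichocarpa, and whose number lies in the range from miR6421 to miR6477. They stand in 53 of the 673 entries of the deposited table, and are 45 of its 472 distinct sequences. They fall into 23 families, and none of the 45 is also listed under a name of another species. Rooted cuttings had been kept in water culture for 60 days. The roots were then exposed for 3 days to pHBA, para-hydroxybenzoic acid, a phenolic compound found in soil under plants. The dose labels read 0, 2 and 4 mML-1, a unit that probably means millimolar, and give the library names PHBA 0 (no acid), PHBA 2 and PHBA 4 used here. Within a treatment the RNA samples had been pooled before sequencing, so every dose is 1 library, replicates are lacking and p-values cannot be had. The intervals in brackets are 95% intervals for counting error only.

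MicroRNAs (miRNAs) are cut from hairpin precursors as a duplex of a 5' and a 3' strand. One strand is loaded into an Argonaute protein and guides it to mRNAs by base pairing, and the partner strand is usually less abundant. Plant miRNAs are mostly 21 nt long and begin with U, the base favoured by AGO1. Those of 22 nt can trigger secondary small RNAs from their targets, while RNAs of 24 nt are typical products of DCL3, the Dicer-like enzyme of the pathway that guides DNA methylation. Families found in few species, such as these, are usually less abundant than conserved ones and are often thought to be of recent origin. Of the families here, miR6445 has been reported in poplar to act on NAC transcription factors.

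The sequences are given as the deposited table writes them, with T for U, and with the seed (bases 2 to 8) in capitals. A lower-case miR marks a registered mature miRNA, while MIR in capitals, followed by p5 or p3, stands for the strand of a hairpin that has no such registration. In the suffixes, L and R mark bases added or removed at the ends, and ss marks substitutions with position, reference base and base read. At all 17 positions so named the table's sequence held the second base. The most abundant members come first, since they carry most reads of these families.
ptc-miR6445a: tTCATTCCtcttcctaaaatgg
ptc-miR6427-5p: tCGTAATGcttcattctcacaa
ptc-miR6427-3p: gTGGGAATgaacattatgaga
ptc-MIR6438b-p5_1ss11AG: tCGACTGAaagtgaaagctat
ptc-miR6457b: tTAGTTTGgcagcctcttctc
ptc-MIR6457a-p5_1ss7AG: aGAAATGAgagaagagtcgag
ptc-MIR6457a-p3: gGTTTGCTgcactctgctggg
ptc-MIR6421-p3: tTGTAAGGgaagcccacatgg

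The miR6459 and miR6462 families are shown whole, because their strands overlap or pair with one another.
ptc-miR6459a-5p: aGCTCAAGcacaaattcgatc
ptc-miR6459a-3p_R-1: tCGAATTTgggcttgagatt
ptc-miR6459b: tCTCAAGCccaaattcgatc
ptc-MIR6459b-p3_2ss21GT22AT: tCGAATTTgtgcttgagctcttc
ptc-MIR6462a-p5: gGCAAAGAtgcataagagaga
ptc-MIR6462a-p3_1ss17GA: tTTTTGTCcctcgctaatctc
ptc-miR6462c-5p_L-3R+2: gGACAAAAatggcataagaga
ptc-MIR6462c-p3: tATGCATTtttgtccctcgcc
ptc-MIR6462d-p5: aGGGGCAAaaatggcataaga
ptc-MIR6462f-p5: gACAAAAAtggcataagagagg
ptc-MIR6462f-p3_1ss9GA: tCTCTTATacgtttttgtctc

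The miR6456 pair and the members of 24 nt with a mean of at least 10 are shown because all 5 were called at least 2-fold different between some libraries.
ptc-MIR6456-p5_2ss6GA21CT: aTCTAATGaaaggactcaagt
ptc-miR6456_1ss20CT: tTGAGTCCttccattagattc
ptc-MIR6446-p5_2ss22AG23CT: aTCATGAGggctcagtaaacagta
ptc-MIR6446-p3: tATGCTGCttgctgggtcctgatg
ptc-miR6476a_L+4: cGGATCAGtggagatgaaacatga

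The members were a small part of the root miRNAs, and this part was larger at the higher dose. Without the acid they held 0.787% of all reads over distinct sequences (0.773 to 0.802, Wilson intervals here and for other shares). With it they held 0.866% (0.842 to 0.891) at the lower dose and 1.22% (1.18 to 1.25) at the higher. In normalized reads, the deposited counts times 1 constant per library, the sum was 5630, 6081 and 6953. It was thus 1.08-fold higher in PHBA 2 (1.04 to 1.12) and 1.23-fold higher in PHBA 4 (1.19 to 1.28) than in PHBA 0. The sum over the other 427 sequences was 1.02-fold and 1.26-fold lower. Without ptc-miR6445a, left out as a check added once the data had been seen, the log2 ratio of the member sums was 0.017 in place of 0.11 for PHBA 2, and 0.20 in place of 0.30 for PHBA 4. Without that sequence the sum of PHBA 2 thus lay near that of PHBA 0, and no other sequence was left out in turn.

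The depth differed between libraries, with 1434442, 542913 and 380800 reads over all distinct sequences at the doses 0, 2 and 4. Of these, 11295, 4703 and 4635 fell on the members. Annotations doubted as fragments of tRNA or rRNA (miR5368, miR6300, miR6478 and all sequences of 18 or 19 nt) were also higher, with sums of 6365, 17500 and 31598 normalized reads. Their part in the differences below was not tested. Rescaling the libraries to equal totals moves the log2 ratios of PHBA 4 up by 0.32 against PHBA 0 and by 0.30 against PHBA 2. Differences of PHBA 4 are therefore relative to the deposited scale.

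A few members carried most of the reads. The 12 with the highest mean held 82.9%, 84.9% and 88.2% of member reads over the doses. A mean of at least 10 normalized reads over the libraries was set as the minimum for comparing members, and 31 of 45 reached it. The other 14 had means from 0.831 to 7.91 normalized reads. In whole roots, fewer cells that make a miRNA and less of it per cell cannot be told apart. The table lists miRNAs only, so the root label was not checked against marker genes.

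**Figure D1:**
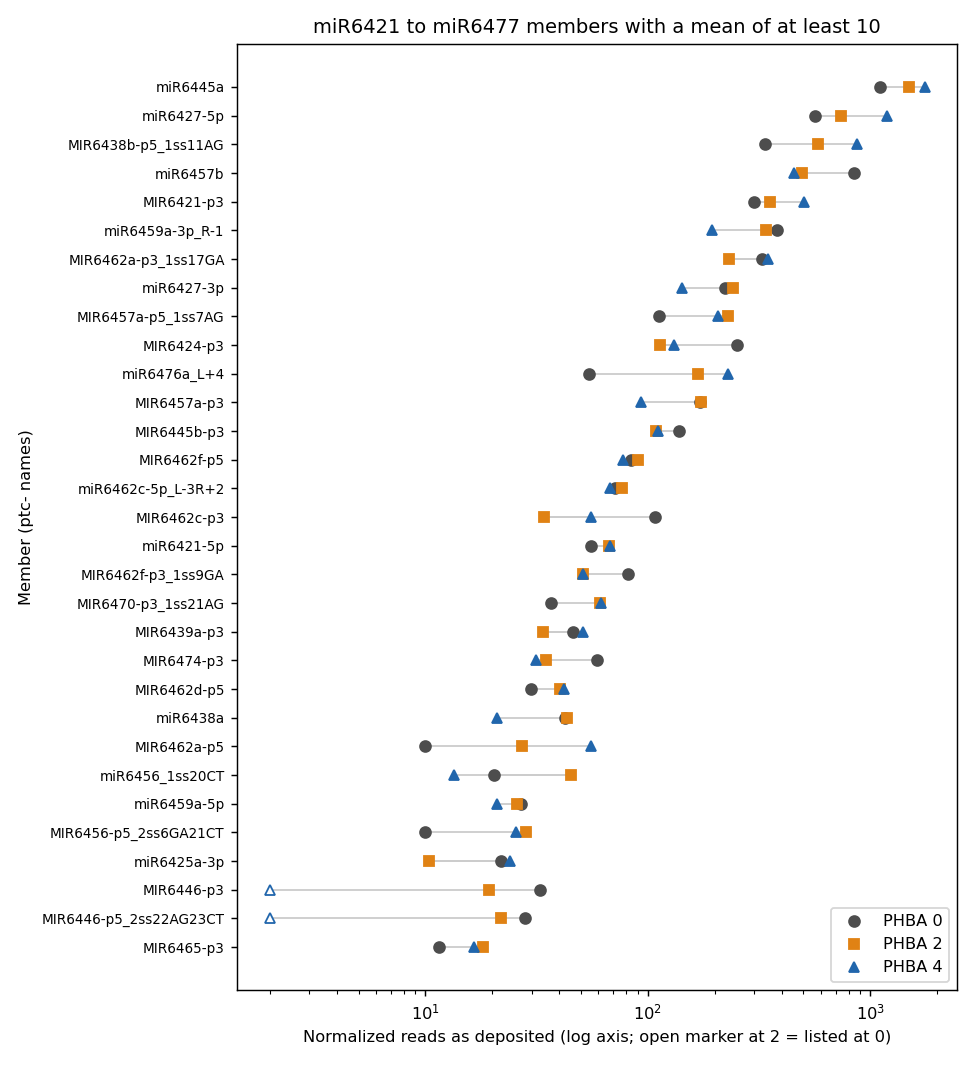
Normalized reads (log axis) of the 31 members with a mean of at least 10, ordered by mean, with a marker for each of the 3 libraries and an open marker at the left edge where a member was listed at 0. The most abundant member, miR6445a, runs from 1102 in PHBA 0 to 1759 in PHBA 4, and the pair from hairpin miR6446 is listed at 0 in PHBA 4.

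PHBA 2 and PHBA 4 were each compared with PHBA 0 to see which members differ in roots that received the acid. In PHBA 2, miR6476a, both strands of miR6456, the 5' strand of miR6457a and the 5' strand of miR6462a were at least 2-fold higher. The strand MIR6424-p3, miR6425a-3p and the 3' strand shared by miR6462b, miR6462c and miR6462d were at least 2-fold lower. In PHBA 4, miR6427-5p and MIR6438b-p5 joined miR6476a, MIR6456-p5 and MIR6462a-p5 on the higher side, while both strands of miR6446 were listed at 0. The call was a log2 of (a + 1) over (b + 1) of at least 1 in size.

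By that call 5 of 31 members were higher and 3 lower in PHBA 2, where the background over all 289 sequences compared was 16.3% higher and 9.69% lower (26% in all). The median log2 difference was 0.10 for the members and -0.03 over all sequences. In PHBA 4, 5 of 31 were higher and 2 lower, against a background of 23.9% higher and 21.1% lower (45% in all), and both lower ones were listed at 0. The median was -0.07 for the members and 0.01 over all. With equal totals the members of PHBA 4 divide into 8 higher and 2 lower, and the background into 29.6% and 15.1%. The doubted fragments make up 48 of the 289 sequences and hold 29 of the 47 higher calls in PHBA 2 and 40 of the 69 in PHBA 4. Without them, a background chosen after seeing the data, 7.47% of 241 sequences were higher in PHBA 2 (17% called in all) and 12% in PHBA 4 (37.3% in all), with medians of -0.12 and -0.30. The share of members higher was 16.1% in both comparisons. It lay near or below the background with the fragments and above it without them. The share of members called in PHBA 4, 22.6%, was below both backgrounds. PHBA 2 and PHBA 4 share the PHBA 0 library as their reference, so the comparisons are not independent.

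Between the doses, PHBA 4 against PHBA 2, 2 of 31 members were called higher and 4 lower, with a background of 17.3% and 16.3% (33.6% in all). Without the doubted fragments that background was 11.2% higher and 29% called in all. The higher ones were ptc-miR6425a-3p and ptc-MIR6462a-p5. The lower ones were ptc-miR6438a, ptc-miR6456_1ss20CT and the pair from miR6446, which was listed at 0. For comparison, other families were also set against PHBA 0. The other poplar families (miR475 to miR477, miR1444, miR1446 to miR1448 and miR1450) had 2 higher and 0 lower of 27 in PHBA 2. In PHBA 4 they had 1 higher and 4 lower. The conserved families had 1 higher and 10 lower of 96 in PHBA 2, and 9 higher and 24 lower in PHBA 4. In PHBA 4 against PHBA 2 the other poplar families had 1 higher and 4 lower, and the conserved families 14 higher and 14 lower.

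**Figure D2:**
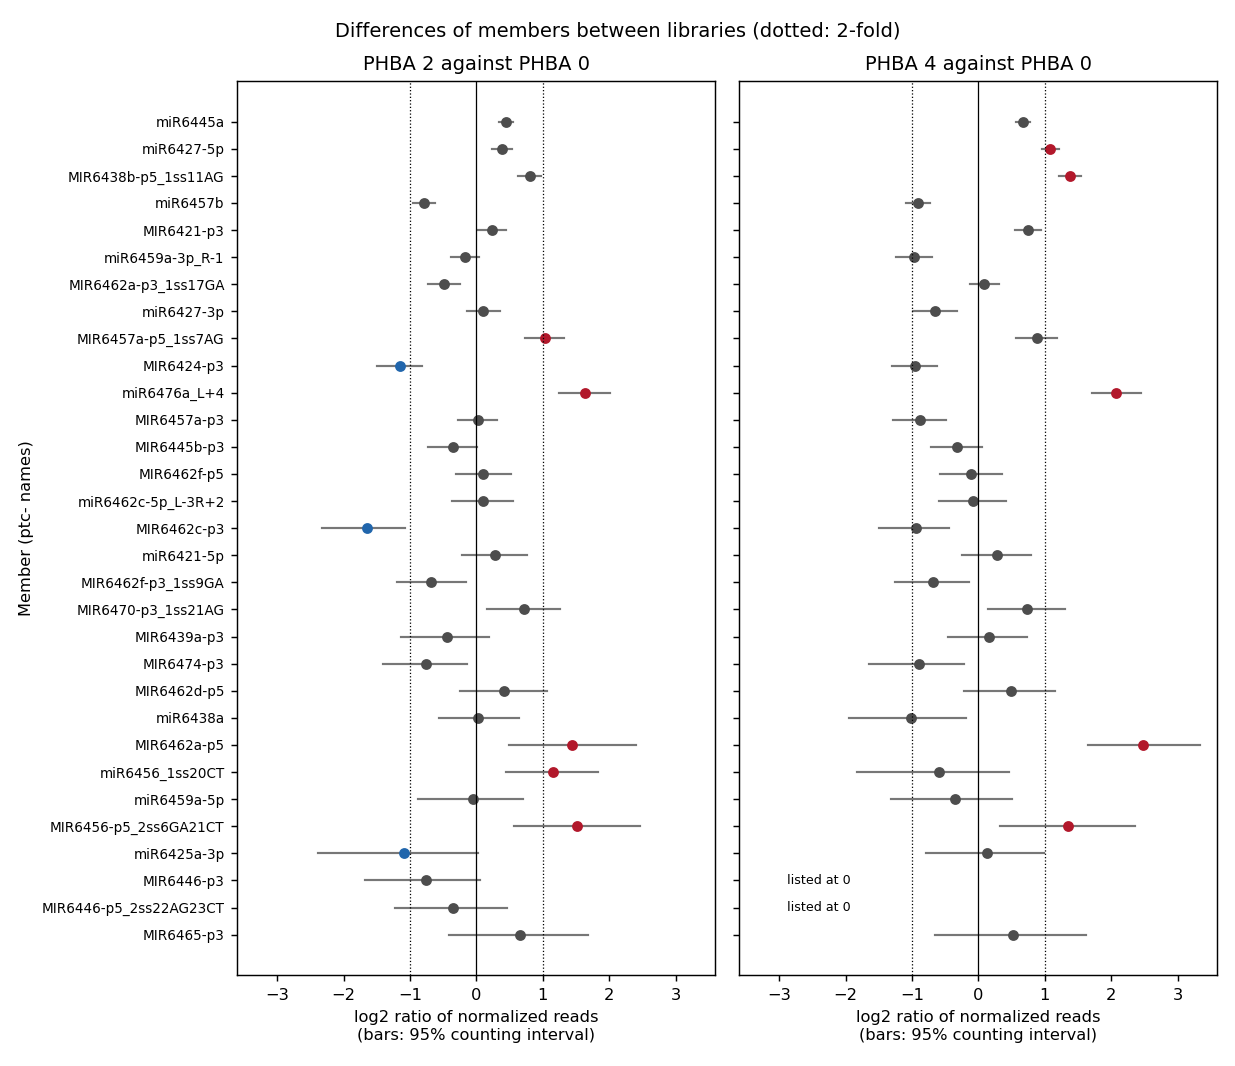
Log2 ratios of normalized reads of PHBA 2 and PHBA 4 to PHBA 0 for the same 31 members, with bars for the 95% counting interval, dotted lines at 2-fold and coloured points for members called higher (red) or lower (blue). MIR6462a-p5 and miR6476a lie farthest to the right in PHBA 4, at 5.57-fold and 4.22-fold higher, and intervals widen down the plot as reads become few.

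ptc-miR6445a, of the family reported to act on NAC factors, was the most abundant member at every dose. It stood at 1102, 1499 and 1759 normalized reads over the doses, and was 1.36-fold higher in PHBA 2 (1.27 to 1.46) and 1.60-fold higher in PHBA 4 (1.49 to 1.71), short of 2-fold. The strand ptc-MIR6445b-p3, of a second hairpin of this family, stood at 139, 109 and 111. It was 1.28-fold lower in PHBA 2 (0.996 to 1.65) and 1.25-fold lower in PHBA 4 (0.963 to 1.64), and its interval includes 1 both times. With equal totals its direction in PHBA 4 is turned. The 2 sequences carry different hairpin letters, and 14 of 20 facing bases form Watson-Crick pairs and 1 forms a G-U pair. The highest number of Watson-Crick pairs between members of different families was also 14. The family held 22.04%, 26.4% and 26.9% of member reads.

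Both strands of the miR6427 hairpin are registered, and they parted at the higher dose. ptc-miR6427-5p, of 22 nt, stood at 564, 738 and 1195 normalized reads, lowest in PHBA 0 and highest in PHBA 4. It was 1.31-fold higher in PHBA 2 (1.18 to 1.45) and 2.12-fold higher in PHBA 4 (1.93 to 2.32). ptc-miR6427-3p, of 21 nt, stood at 223, 240.5 and 142. In PHBA 2 it was 1.08-fold higher (0.903 to 1.28), with an interval that includes 1, and in PHBA 4 it was 1.57-fold lower (1.25 to 1.98). Of the reads on both strands the 3' strand had 28.4% (26.2 to 30.6) without the acid, 24.6% (21.6 to 27.8) at the lower dose and 10.7% (8.79 to 12.8) at the higher. A share of strands within a library does not depend on how libraries are scaled.

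In miR6438 the unregistered strand of hairpin miR6438b was more abundant than the registered ptc-miR6438a at every dose. ptc-MIR6438b-p5_1ss11AG stood at 335, 584 and 873 normalized reads, and was 1.74-fold higher in PHBA 2 (1.55 to 1.97) and 2.61-fold higher in PHBA 4 (2.33 to 2.92). ptc-miR6438a, of 22 nt, stood at 42.4, 43.3 and 21. It was 1.02-fold higher in PHBA 2 (0.676 to 1.56) and 2.02-fold lower in PHBA 4 (1.14 to 3.85), just outside the call through the pseudocount. The table also holds a predicted sequence, PC-5p-110259_36, that shares the 17-base stretch tcgactgaaagtgaaag with the start of the MIR6438b strand, beginning 4 bases earlier. That sequence is no member and stood at 3.99, 0 and 25.5 normalized reads.

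In hairpin miR6457a the 5' strand was higher and the 3' strand lower in PHBA 4, while in miR6457b both strands stood lower. ptc-miR6457b, the registered 3' strand, stood at 847, 491 and 453 normalized reads, and was 1.72-fold lower in PHBA 2 (1.54 to 1.93) and 1.87-fold lower in PHBA 4 (1.65 to 2.12). Its partner ptc-MIR6457b-p5, of 24 nt, stood at 10.5 and 6.47 and was listed at 0 in PHBA 4, and the 3' strand held 98.8%, 98.7% and 100% of the reads of both. For hairpin miR6457a the 5' strand stood at 113, 230 and 207, and was 2.04-fold higher in PHBA 2 (1.67 to 2.50) and 1.84-fold higher in PHBA 4 (1.48 to 2.28). The 3' strand stood at 170.98, 173 and 93, which is 1.84-fold lower in PHBA 4 (1.40 to 2.45). The share of the 3' strand in hairpin miR6457a was 60.3% (56.2 to 64.2), 42.9% (37.6 to 48.5) and 31.0% (25.0 to 37.7). The more abundant strand was thus the 3' strand in PHBA 0 and the 5' strand at both doses of the acid.

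**Figure D3:**
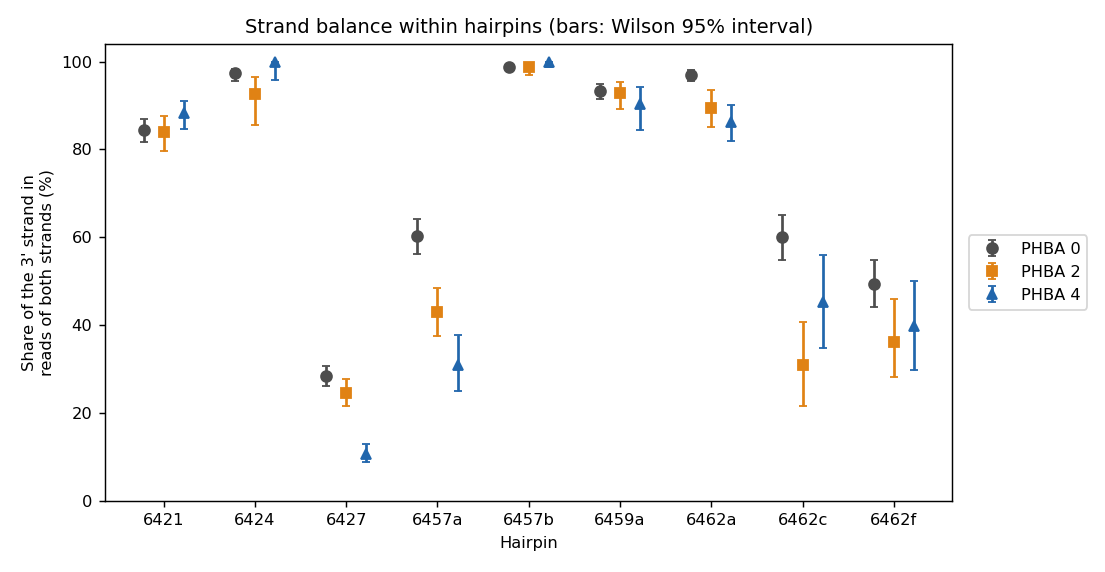
Share of the 3' strand in the reads of both strands of a hairpin, in percent, for the hairpins with at least 300 such reads in PHBA 0, with bars for the Wilson 95% interval. The intervals of PHBA 0 and PHBA 4 do not overlap for hairpins miR6427, miR6457a and miR6462a, with lower shares in PHBA 4, while miR6421, miR6424, miR6457b and miR6459a keep shares above 80% in all libraries.

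Strands were then compared over all members. An arm was taken from the name or, for a registered miRNA without one, from its partner in the same hairpin, which gave 19 strands of the 5' arm, 21 of the 3' arm and 5 without an assignment. Of 5' strands 11 reached the minimum, and their median log2 difference was 0.39 in PHBA 2 and 0.48 in PHBA 4. Of 3' strands 17 reached it, with medians of -0.44 and -0.64. At the higher dose 4 of the 5' strands were at least 2-fold higher and 1 lower, while 0 of the 3' strands were higher and 1 was lower. Over all 289 sequences, not split by arm, the medians were -0.03 and 0.01. Of these sequences 23.9% were called higher and 21.1% lower in PHBA 4 against PHBA 0. Whether the arms also differ among the other sequences of these libraries was not tested. Rescaling moves both arms alike, to medians of 0.79 and -0.32 in PHBA 4 with equal totals, and so has no bearing on the gap between them. Both comparisons use the same PHBA 0 library. Between the doses, PHBA 4 against PHBA 2, the 5' median was -0.15 and the 3' median -0.0020, so that the 5' median was there the lower one. Of the 5' strands 1 was higher and 1 lower, and of the 3' strands 1 was higher and 2 lower. The background for that comparison was 17.3% higher and 16.3% lower. With no minimum the 5' median of PHBA 4 was -0.12, since strands listed at 0 then enter. The 5' arm held 24.1%, 32.3% and 38.1% of member reads and the 3' arm 54.4%, 39.2% and 32.8%. The strands of a hairpin come from 1 transcript and the miR6462 strands resemble each other, so the members are not independent of one another.

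In miR6462 the strands moved in different directions and the family sum changed little in PHBA 4. The sum was 711, 551 and 696 normalized reads, 1.29-fold lower in PHBA 2 (1.16 to 1.44) and 1.02-fold lower in PHBA 4 (0.918 to 1.14), where the direction turns with equal totals. Its 4 sequences of the 5' arm summed to 195, 234 and 242, while the 3 of the 3' arm summed to 516, 317 and 454. ptc-MIR6462a-p5 stood at 9.97, 27.2 and 55.5, and was 2.72-fold higher in PHBA 2 (1.40 to 5.30) and 5.57-fold higher in PHBA 4 (3.15 to 10.1). These values rest on 20, 21 and 37 reads. Its partner ptc-MIR6462a-p3_1ss17GA, the most abundant strand of the family, stood at 327, 232 and 347.

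The 3' strand shared by hairpins miR6462b, miR6462c and miR6462d, listed as ptc-MIR6462c-p3, stood at 107, 34.3 and 55.7 normalized reads. It was 3.13-fold lower in PHBA 2 (2.12 to 4.99) and 1.93-fold lower in PHBA 4 (1.36 to 2.82). ptc-miR6462c-5p_L-3R+2, the family's registered miRNA, stood at 71.1, 76.5 and 67.5, and ptc-MIR6462f-p5 at 83.8, 90.1 and 77.2, with intervals that include 1 in every comparison. ptc-MIR6462d-p5 stood at 29.9, 40.1 and 42, and ptc-MIR6462f-p3_1ss9GA at 81.7, 51.1 and 51. The sequences overlap, with 20 bases in common between ptc-miR6462c-5p_L-3R+2 and ptc-MIR6462f-p5, gacaaaaatggcataagaga, shifted by 1 base so that their seeds differ. Counts of this family are fractional in part, and reads of such overlapping sequences cannot be told apart with certainty.

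The miR6459 family was lower in PHBA 4. Its sum was 412, 385 and 216 normalized reads, 1.07-fold lower in PHBA 2 (0.935 to 1.22) and 1.91-fold lower in PHBA 4 (1.60 to 2.29). ptc-miR6459a-3p_R-1 carried it with 380, 339 and 195, and was 1.95-fold lower in PHBA 4 (1.62 to 2.37). ptc-miR6459a-5p stood at 26.9, 25.9 and 21. ptc-miR6459b stood at 4.49 and 14.2 and was listed at 0 in PHBA 4, and ptc-MIR6459b-p3_2ss21GT22AT was above 0 in PHBA 2 alone, at 6.47, from 5 reads. The 3' strands share the seed CGAATTT, the only seed common to several members, so the 45 members have 44 seeds.

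The strands of miR6459 paired better across hairpin letters than within them. Strands were laid antiparallel without gaps and Watson-Crick pairs were counted in the register with the most. ptc-miR6459a-5p paired at 19 of 19 facing bases with ptc-MIR6459b-p3_2ss21GT22AT and at 17 of 19 with ptc-miR6459a-3p_R-1. ptc-miR6459b paired at 18 of 18 with ptc-miR6459a-3p_R-1, with 2 bases overhanging at both 3' ends, and at 16 of 18 with the p3 strand of its own letter. In miR6462, ptc-MIR6462a-p5 likewise formed 15 pairs and 3 G-U pairs over 19 bases with ptc-MIR6462f-p3_1ss9GA, again with 2-base overhangs, and 9 pairs with the p3 strand of its own letter.

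Over the 18 hairpins with both strands listed, pairs numbered from 8 to 18 with a median of 12. Hairpins miR6462b and miR6462d list the same strands, as do miR6462e and miR6462f, and each hairpin was counted. Among the 947 pairs of members from different families the median was 8 and the highest 14. The strands of miR6456, miR6463 and miR6474 formed 18, 16 and 17 pairs over 19 bases, with 2 bases overhanging at both 3' ends. For miR6421, miR6446, miR6457a, miR6457b and miR6462a the best register left the 5' ends overhanging instead, with 10, 16, 9, 9 and 9 pairs. The other hairpins had 3' overhangs of other lengths. Precursor sequences were not used here.

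In 8 hairpins a registered strand stood opposite an unregistered one. For 3 of these the unregistered strand was the more abundant in all libraries. ptc-MIR6421-p3 stood at 302, 354 and 505 normalized reads, against 55.3, 67.2 and 67.5 for the registered ptc-miR6421-5p. It was 1.68-fold higher in PHBA 4 (1.46 to 1.92). ptc-MIR6424-p3 stood at 252, 114 and 130, and was 2.22-fold lower in PHBA 2 (1.76 to 2.81) and 1.93-fold lower in PHBA 4 (1.54 to 2.46). The registered ptc-miR6424 stood at 6.98 and 9.05 and was listed at 0 in PHBA 4. ptc-MIR6474-p3 stood at 58.8, 34.9 and 31.5, while the registered ptc-miR6474 stood at 2.49 in PHBA 0 and was listed at 0 in the others.

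Both strands of miR6456 were at least 2-fold higher in PHBA 2 and rest on few reads. ptc-MIR6456-p5_2ss6GA21CT stood at 9.97, 28.4 and 25.5 normalized reads, from 20, 22 and 17 reads. It was 2.85-fold higher in PHBA 2 (1.49 to 5.51) and 2.56-fold higher in PHBA 4 (1.26 to 5.14). Its order between PHBA 2 and PHBA 4 lies inside the counting error and turns with equal totals. ptc-miR6456_1ss20CT stood at 20.4, 45.3 and 13.5, and was 2.21-fold higher in PHBA 2 (1.37 to 3.56), while in PHBA 4 its interval includes 1. ptc-miR6425a-3p stood at 21.9, 10.3 and 24, from 44, 8 and 16 reads. Its 2.12-fold lower value in PHBA 2 has an interval of 0.987 to 5.21.

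By length, 30 members were of 21 nt, 5 of 22 nt, 5 of 24 nt, 4 of 20 nt and 1 of 23 nt. Sequences of 21 nt were 66.7% of the members and 45.4% of the rest of the table. In reads, 21 nt members held 58.9% (58.0 to 59.8), 51.2% (49.7 to 52.6) and 49.7% (48.3 to 51.1) over the doses. Members of 22 nt held 32.0% (31.1 to 32.8), 39.1% (37.7 to 40.5) and 43.9% (42.5 to 45.4), mostly ptc-miR6445a and ptc-miR6427-5p. Among the other sequences those of 22 nt held 71.6%, 71.5% and 62.3%. Thus their share was higher in PHBA 4 than in PHBA 0 among the members and lower among the rest. By first base, 27 of 45 members begin with T, which is 60.0%, against 43.1% of the rest. In reads the order was the other way. These 27 held 81.7%, 78.5% and 83.9% of member reads over the doses. Sequences of the rest that begin with T held 91.5%, 90.6% and 85.9% of its reads.

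**Figure D4:**
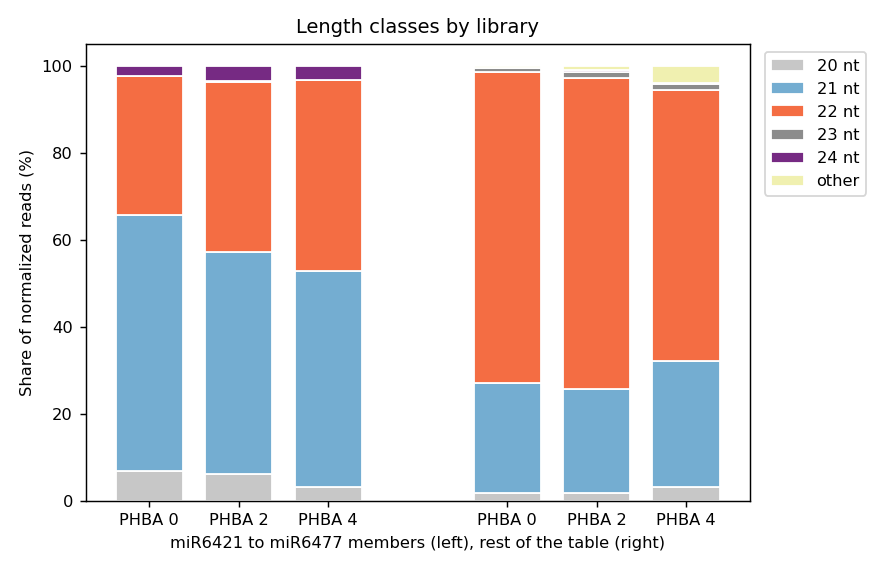
Shares of normalized reads by sequence length in the 3 libraries, for the miR6421 to miR6477 members (left bars) and for the other sequences of the table (right bars). The 22 nt share of the members runs from 32.0% in PHBA 0 to 43.9% in PHBA 4, while that of the rest is 71.6% and 62.3%.

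The 5 members of 24 nt divided into 1 that was higher with the acid and 4 that were listed at 0 in PHBA 4. ptc-miR6476a_L+4, a form of the registered miRNA that is 4 bases longer at its 5' end, stood at 54.3, 168.09 and 229 normalized reads. It was 3.09-fold higher in PHBA 2 (2.38 to 4.03) and 4.22-fold higher in PHBA 4 (3.28 to 5.45). ptc-MIR6446-p3 stood at 32.9 and 19.4 and ptc-MIR6446-p5_2ss22AG23CT at 27.9 and 22, and both were listed at 0 in PHBA 4. At its PHBA 0 level ptc-MIR6446-p3 would have had 21.9 reads in PHBA 4 and the p5 strand 18.6. They form 16 Watson-Crick and 4 G-U pairs over 22 bases, in a register where the 5' ends overhang and the 3' ends do not. The others, ptc-MIR6457b-p5 and ptc-MIR6469-p5, stood at 10.5 and 2.49 in PHBA 0.

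Of all 29 sequences of 24 nt in the table, 6.9% were listed at 0 in PHBA 0, 31% in PHBA 2 and 62.1% in PHBA 4, so zeros at this length were common beyond these families. Over all lengths 3, 5 and 14 of the 45 members were listed at 0, against 10.8%, 22.7% and 26.1% of all sequences. Of the members above 0 in PHBA 0, 12 were at 0 in PHBA 4. Apart from the miR6446 pair, these had at most 21 reads in PHBA 0, a level that corresponds to 6.98 reads or fewer in PHBA 4. The lowest value above 0 in PHBA 4 was 6 reads among members and 0.714 over all sequences. Whether a listed 0 hides a small count is therefore not known, and folds against 0 are left out.

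The members under the minimum were listed at 0 in at least 1 library, with the exception of ptc-miR6455, at 6.98, 7.76 and 9 normalized reads. In hairpin miR6454 the strands were not seen together. ptc-MIR6454-p3_1ss5GT stood at 2.49 and 15.5 and was listed at 0 in PHBA 4, while ptc-MIR6454-p5_2ss3AG20AG was above 0 in PHBA 4 alone, at 19.5, from 13 reads. Both strands of miR6463 were above 0 in PHBA 0 alone, at 3.99 and 2.99. ptc-miR6452_L-2R+2 was above 0 in PHBA 2 alone, at 10.3. ptc-MIR6473-p5_1ss16TG stood at 2.49 and 6.47 and the strand shared by hairpins miR6440a and miR6440d at 1.25 and 4.53, and both were listed at 0 in PHBA 4.

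The order over the doses was also read for every member. Of 31, 9 were higher at each step from PHBA 0 to PHBA 2 to PHBA 4, with a background of 24.9%, and 7 were lower at each step, with a background of 26.6%. The 9 hold the 3 most abundant members, ptc-miR6445a, ptc-miR6427-5p and ptc-MIR6438b-p5_1ss11AG, with both strands of miR6421, ptc-MIR6462a-p5, ptc-MIR6462d-p5, ptc-MIR6470-p3_1ss21AG and ptc-miR6476a_L+4. The 7 hold both strands of miR6446 and of miR6459a, with ptc-miR6457b, ptc-MIR6462f-p3_1ss9GA and ptc-MIR6474-p3. With equal totals 3 of the 7, ptc-miR6457b, ptc-MIR6462f-p3_1ss9GA and ptc-MIR6474-p3, are no longer lower at each step, and 14 members are higher at each step. With median-of-ratios factors 2 of the 9, ptc-miR6421-5p and ptc-MIR6470-p3_1ss21AG, are no longer higher at each step. Several of these steps also lie inside the counting error, as for ptc-miR6421-5p at 67.2 and 67.5. ptc-MIR6470-p3_1ss21AG stood at 36.9, 60.8 and 61.5 normalized reads. Outside both orders, ptc-MIR6439a-p3 stood at 45.9, 33.6 and 51, and ptc-MIR6465-p3 at 11.5, 18.1 and 16.5.

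Few sequences outside these families resembled a member. The seed of ptc-miR6427-3p is shared by a pair of grapevine-named sequences, vvi-MIR3630-p5_1ss1TA and vvi-miR3630-3p_L-1_2ss2TA22CT, which differ from it beyond the seed. The latter stood at 132, 242 and 936 normalized reads, highest in PHBA 4, where ptc-miR6427-3p was lowest. The seed of ptc-miR6425a-3p is shared by mdm-MIR396d-p3, at 1.495 normalized reads in PHBA 0 and listed at 0 in the other libraries.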

How the data were processed

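Poplar root RNA was made into 3 small RNA libraries, 1 per dose, per the labels' protocols, and these were grouped by their titles. The submitters' processing notes name bcl2fastq 1.8.4. For the aligner, the counter, the miRNA database and the genome, nothing is stated in the labels. The deposited table gives an expected count per entry, fractional for some. The authors also deposited a normalized signal, which is that count times a constant of 0.498, 1.29 and 1.50 for the doses 0, 2 and 4. It has no length term, and the choice of the constants is not explained.

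Every distinct sequence was counted once, since its entries repeat the same values. How reads were divided between entries is not stated. If they were divided, counting once leaves part of them out for sequences with several entries. The members' share of all reads was not recomputed with every entry. Members and lists were chosen with earlier results of these data known. Named were all members of families 6427, 6438, 6445, 6446, 6459 and 6462, the 12 with the highest mean, and those called at least 2-fold different. Others named for pairing, seeds or dose order were chosen after their values were seen. Folds are ratios of normalized reads without a pseudocount, with exact conditional binomial intervals. For these, expected counts were rounded to whole numbers. Calls use a pseudocount of 1. The table holds no molecular identifiers, so intervals cover counting error only. Computations used Python 3.11.15 and scipy 1.17.1. Calls and intervals were tried on simulated counts with known differences and counting error only. Such counts hold no variation between plants or libraries, so that variation stays unmeasured. With 1 library a dose no test across replicates was made. Equal totals, median-of-ratios factors, other minimums and pseudocounts, and counting every entry were tried as alternatives.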

Additional observations from a re-analysis of the deposited data

How the results depend on the processing

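No paired analysis was possible because each dose is 1 library. Without a minimum on the mean, 18 members were called in PHBA 2 against PHBA 0 (11 higher, 7 lower), 18 in PHBA 4 against PHBA 0 (12 lower) and 15 in PHBA 4 against PHBA 2 (12 lower). At a mean of at least 50 the counts were 4 (2 higher), 3 (3 higher, 0 lower) and 0 (0 higher, 0 lower). With a pseudocount of 5 they were 5 (3 higher) in PHBA 2 against PHBA 0 and 3 (0 higher) in PHBA 4 against PHBA 2. Every entry counted gave 6 lower in PHBA 2 against PHBA 0. Equal totals gave 8 higher in PHBA 4 against PHBA 0, with a background of 29.6%. Median-of-ratios gave 4 lower there (background 22.5%) and 1 higher in PHBA 4 against PHBA 2 (background 15.6%). Without values of 0, chosen after seeing the data, 0 were lower in PHBA 4 against PHBA 0 and 2 against PHBA 2. Apart from the scalings, the background over all sequences was not recomputed at these settings. Those counts therefore have no share of all sequences beside them.

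The log2 ratio of summed members in PHBA 4 was 0.63 with equal totals, 0.25 with every entry and 0.20 without ptc-miR6445a against PHBA 0, and 0.49 with equal totals against PHBA 2. In PHBA 2 against PHBA 0 it was 0.017 without ptc-miR6445a. The 21 nt share of PHBA 0 was 60.0% with every entry. The median of 5' strands turned to -0.12 without a minimum in PHBA 4 against PHBA 0. Against PHBA 2 it turned to 0.14 with equal totals, and that of 3' strands to 0.29 with equal totals and 0.017 at a mean of at least 50. Equal totals also turned the direction of 3 of 29 members above 0 in both libraries in PHBA 4 against PHBA 0, and of 8 of 29 against PHBA 2. The cause of these differences was not tested, beyond the number of sequences that a minimum leaves. PHBA 4 rests on the fewest reads.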
